A study of Homo sapiens with 6 samples.

Results

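FGF receptors and the proteins that serve them were followed in AsPC-1, an established cell line from a human pancreatic adenocarcinoma. The set held 9 of the 26228 rows of the deposited table: the receptor kinases FGFR1, FGFR2, FGFR3 and FGFR4, the kinase-less receptor FGFRL1, the ligand FGF19, its co-receptor KLB, the carrier protein FGFBP1 and the adaptor FRS2. They were matched by gene symbol, and 7 of them passed the filter on low values (at least 1 FPKM in at least 3 libraries). FGFR2 and KLB did not, and FGFR3 passed through its vehicle libraries alone. The set was chosen by measured values: its fold changes between DON and vehicle in these same libraries, in which FGFR4 and FGFBP1 stood among the largest falls. The values of the 9 genes are therefore given as a description, with no test.

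Cells were kept for 24 h in serum-free medium with either vehicle (3 libraries) or DON (3 libraries). DON, or 6-diazo-5-oxo-L-norleucine, resembles glutamine and inactivates enzymes that use it, and the study asked which genes respond. Whether the replicates were separate cultures is not given by the labels, so p-values cover the spread among these libraries, which may be technical.

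FGF receptors are receptor tyrosine kinases. A secreted FGF binds the receptor together with heparan sulfate chains of cell surface proteoglycans, the receptor phosphorylates the adaptor FRS2 and phospholipase C gamma, and the signal runs on to the ERK kinases. FGF19 belongs to the endocrine FGFs, which bind heparan sulfate weakly and rely on a klotho protein such as KLB, and in liver it acts through FGFR4 to lower bile acid synthesis. FGFBP1 is a secreted protein that frees FGFs from the matrix.

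Promoter sequences are shown for the 2 genes with the largest falls, FGFR4 and FGFBP1, and for the receptor FGFR3, which was lower as well. Of the 2 FGFR4 windows in the table, the first along the chromosome is shown. Each runs 5′ to 3′ from 250 bases before to 50 bases after a transcription start, from RefSeq on GRCh38.p14, a later build than the hg19 of the reads. Capitals mark the GC box GGGCGG, read on both strands, in FGFR4 (chr5:177086665-177086964, plus strand) and in FGFR3 (chr4:1793043-1793342, plus strand), and the letters CCAAT, read on both strands, in FGFBP1 (chr4:15938691-15938990, minus strand).
FGFR4: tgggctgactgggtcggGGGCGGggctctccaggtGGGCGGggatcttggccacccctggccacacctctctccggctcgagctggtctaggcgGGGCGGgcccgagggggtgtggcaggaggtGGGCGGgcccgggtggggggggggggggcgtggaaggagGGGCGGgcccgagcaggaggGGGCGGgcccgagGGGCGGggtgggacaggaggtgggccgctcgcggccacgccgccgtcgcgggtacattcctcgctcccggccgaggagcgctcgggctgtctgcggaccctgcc
FGFR3: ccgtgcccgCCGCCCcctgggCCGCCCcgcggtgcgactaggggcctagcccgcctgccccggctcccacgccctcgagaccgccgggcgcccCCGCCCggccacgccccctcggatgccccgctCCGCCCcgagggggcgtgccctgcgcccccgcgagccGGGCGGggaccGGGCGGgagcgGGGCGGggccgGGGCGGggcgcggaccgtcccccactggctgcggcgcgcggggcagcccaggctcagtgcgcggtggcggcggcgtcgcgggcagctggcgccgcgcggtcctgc
FGFBP1: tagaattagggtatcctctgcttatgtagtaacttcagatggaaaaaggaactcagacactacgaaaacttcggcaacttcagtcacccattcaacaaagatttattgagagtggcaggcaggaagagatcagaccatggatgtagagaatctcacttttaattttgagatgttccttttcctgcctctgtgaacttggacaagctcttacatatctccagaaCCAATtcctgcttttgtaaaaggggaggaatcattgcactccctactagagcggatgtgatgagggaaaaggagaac

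The FGFR4 window was 78.7% G and C with 7 GC boxes, and the FGFR3 window 86.3% with 8. The other FGFR4 window (chr5:177089300-177089599, plus strand) was 57.3% G and C and held no GC box. The FGFBP1 window was 42.0% G and C, held no GC box and held CCAAT once. CCAAT was also found in the FGFRL1 window and in some FGFR2 windows. The median over all 35116 RefSeq windows of this length was 58.7% G and C, and 45.0% of them held a GC box and 34.6% CCAAT. FGFRL1, which also fell, had 4 GC boxes, and FRS2, whose groups overlapped, had 3. The FGFR2 window at chr10:121598395-121598694 had 5, that at chr10:121594209-121594508 had 1 and its other windows had 0, as did the KLB window. Whether GC boxes go with the falls was not tested. The CHOP-ATF4 composite motif TGATGNAA was searched on both strands, and the windows of FGFR3, FGFR4, FGFRL1, FGFBP1, KLB and FRS2 had no match, while 1 of 5 FGFR2 windows did, as did 3.6% of all windows. Of the other motifs searched on both strands, the E-box CACGTG was found in FGFRL1 and in a second FGFR4 window (7.3% of all windows). No member window held the AP-1 motif TGANTCA (7.7% of all windows), the TATA box motif TATAAA (11.5%) or the cAMP-response motif TGACGT (8.0%). The 12 windows found belong to 7 members. These matches describe letters in 1 window and do not show binding.

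Values are in FPKM, fragments normalised for transcript length and library size, which allows levels of different genes to be set side by side. FGFR4, the receptor that FGF19 uses in liver, stood at 74.9, 77.6 and 55.5 FPKM in vehicle replicates 1, 2 and 3, and at 11.5, 8.33 and 6.45 FPKM in DON replicates 1, 2 and 3. The highest DON library lay far below the lowest vehicle library. The ratio of the means, 69.4 ± 12.0 and 8.76 ± 2.55 FPKM (SD, n = 3 per group), was a 7.92-fold fall. Of 11471 tested genes, 3 had a larger fall on the log2(FPKM + 1) scale, where FGFR4 changed by -2.87 ± 0.21 (SE).

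FGFR3, a receptor that epithelial cells commonly carry, stood at 2.59, 2.40 and 2.15 FPKM in vehicle and at 0.429, 0.336 and 0.556 FPKM in DON. The groups did not overlap, and the means (2.38 ± 0.223 and 0.440 ± 0.110 FPKM, SD, n = 3) gave a 5.40-fold fall. FGFR2, the other receptor typical of epithelium, was low throughout, with 0.369, 0.316 and 0.422 FPKM in vehicle and 0.0698, 0.202 and 0.0901 FPKM in DON. The means of FGFR2 were 3.06-fold apart, but values this far under 1 FPKM may rest on few reads, and the depth behind them is unknown. The DON values of FGFR3 were also under 1 FPKM, so the size of its fall is uncertain in the same way. Its log2 fold change was -1.23, and -2.21 with a pseudocount of 0.1.

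FGFR1, the receptor best known from mesenchymal cells, did not follow the other kinases. It stood at 5.65, 6.77 and 6.89 FPKM in vehicle and at 7.43, 7.09 and 7.21 FPKM in DON. All DON libraries lay above all vehicle libraries, by little: the means were 6.43 ± 0.685 and 7.25 ± 0.171 FPKM, and the log2(FPKM + 1) difference was 0.15 with a 95% interval from -0.09 to 0.39. FGFRL1, which binds FGFs but has no kinase domain, stood at 9.12, 8.79 and 9.24 FPKM in vehicle and 4.16, 4.67 and 4.91 FPKM in DON. Its groups did not overlap either, and the means were 1.98-fold apart.

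**Figure D1:**
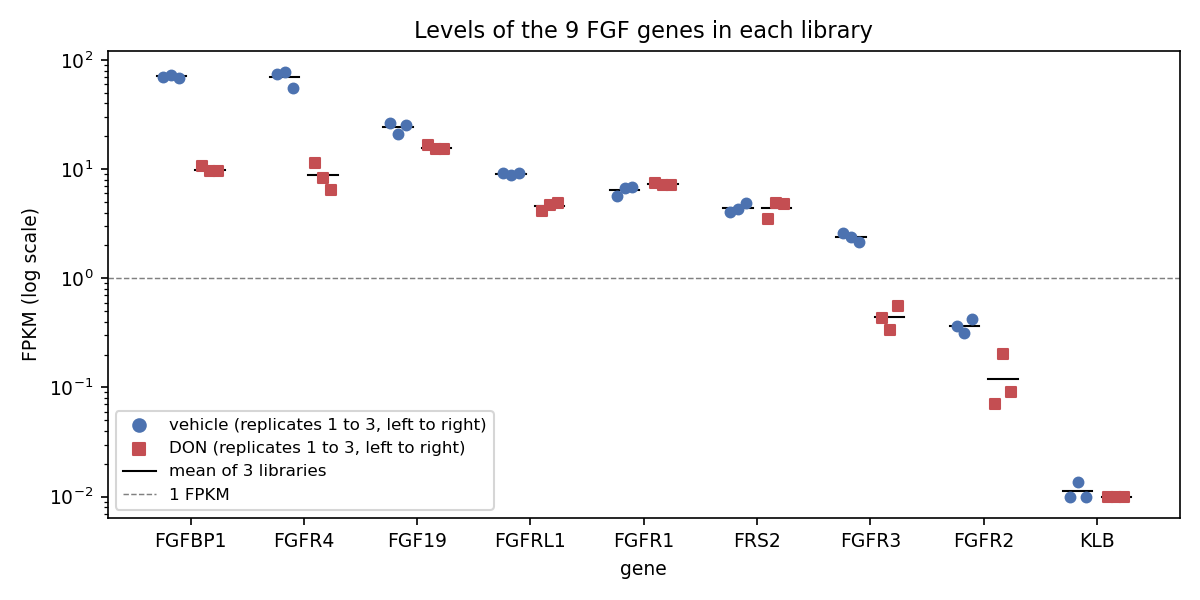
FPKM of the 9 genes on a log axis, with 1 point per library (circles vehicle, squares DON) and a bar at the mean of 3 libraries. The vehicle and DON points of FGFBP1 and FGFR4 lie furthest apart among the genes above 1 FPKM in DON, those of FGFR1 and FRS2 lie close together, and KLB sits at the lowest value of the table, 0.01 FPKM.

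With FGFR4 much lower and FGFR1 slightly higher, the makeup of the receptor kinases differed between the groups. FGFR1 to FGFR4 summed to 83.5, 87.1 and 65.0 FPKM in vehicle and to 19.4, 16.0 and 14.3 FPKM in DON. FGFR4 held 85.5% to 89.7% of that sum in vehicle and 45.1% to 59.2% in DON, while the share of FGFR1 went from 6.76% to 10.6% in vehicle to 38.3% to 50.4% in DON. The ratio of FGFR4 to FGFR1 was 13.3, 11.5 and 8.07 in the vehicle libraries and 1.55, 1.17 and 0.894 in the DON libraries, so that FGFR1 exceeded FGFR4 in DON replicate 3 alone.

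**Figure D2:**
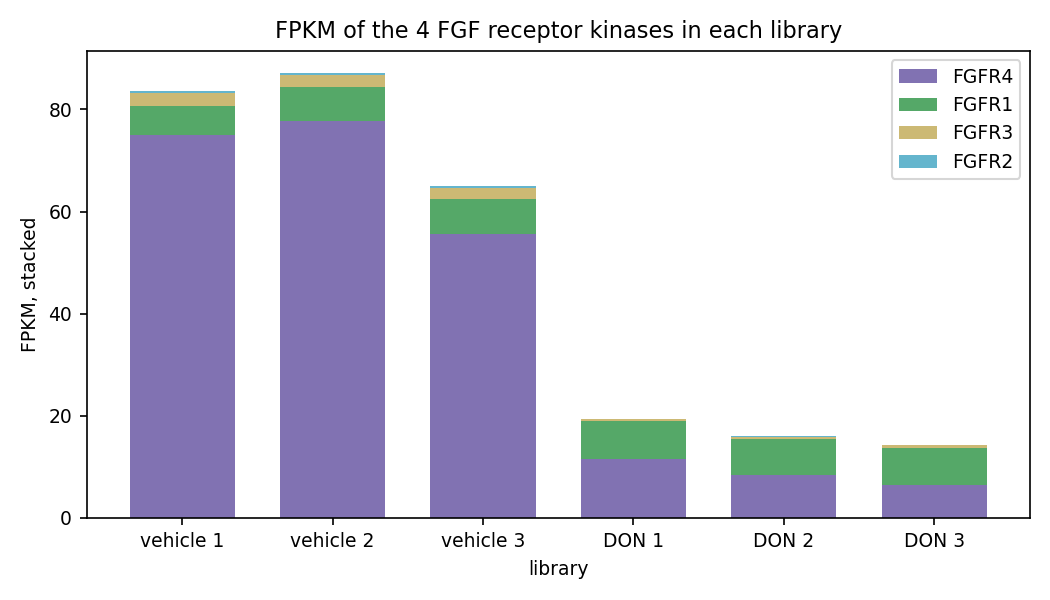
FPKM of FGFR4, FGFR1, FGFR3 and FGFR2 stacked for each library. The vehicle bars reach 65.0 to 87.1 FPKM and consist mostly of FGFR4, and the DON bars reach 14.3 to 19.4 FPKM while FGFR1 takes 5.65 to 7.43 FPKM in all 6.

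FGFBP1, the carrier protein, stood at 70.1, 73.5 and 68.7 FPKM in vehicle and 10.6, 9.56 and 9.55 FPKM in DON. Its libraries were tightly grouped, with a coefficient of variation of 3.55% in vehicle and 6.02% in DON against 17.4% and 29.1% for FGFR4. The means, 70.8 ± 2.51 and 9.90 ± 0.596 FPKM, were 7.15-fold apart.

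FGF19 stood at 26.6, 20.8 and 25.4 FPKM in vehicle and at 16.7, 15.4 and 15.2 FPKM in DON. Its groups did not overlap, but the fall from 24.3 ± 3.06 to 15.7 ± 0.812 FPKM was 1.55-fold, far smaller than that of its receptor. The ratio of FGFBP1 to FGF19 was 2.63, 3.53 and 2.70 in vehicle and 0.636, 0.622 and 0.630 in DON. KLB, the klotho protein that FGF19 needs for full binding to FGFR4 in liver, was listed at the table's floor of 0.01 FPKM in 5 libraries and at 0.0136 FPKM in vehicle replicate 2. Its relative KL, the co-receptor for FGF23, was at the floor in all 6.

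FRS2, the docking adaptor that carries the signal from all 4 receptor kinases, stood at 4.03, 4.30 and 4.93 FPKM in vehicle and 3.47, 4.84 and 4.77 FPKM in DON. The groups overlapped, and the log2 difference was -0.02 with a 95% interval from -0.35 to 0.31. Leaving out DON replicate 1, the lowest, turned it to 0.10, leaving out vehicle replicate 3 to 0.04 and quantile normalization to 0.06.

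In vehicle the order of levels was FGFBP1, FGFR4, FGF19, FGFRL1, FGFR1, FRS2, FGFR3, FGFR2 and KLB, and FGFBP1 and FGFR4 were the one pair of neighbours whose libraries overlapped. In DON the order was FGF19, FGFBP1, FGFR4, FGFR1, FGFRL1, FRS2, FGFR3, FGFR2 and KLB. There FGFBP1 overlapped FGFR4, FGFR4 overlapped FGFR1, and FGFRL1 overlapped FRS2. FGFR4 went from above 88.7% of tested genes in vehicle to above 39.7% in DON, and FGFBP1 from 89.0% to 43.1%, whereas FGF19 went from 68.0% to 56.3%.

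By the same call rule as all genes (limma, Benjamini-Hochberg adjusted p under 0.05), 5 of the 7 tested members were lower and 0 higher, beside 20.6% lower and 18.3% higher among all 11471 tested genes. The DON libraries of those 5 all lay below every vehicle library, as for 26.5% of tested genes, and those of FGFR1 all above, as for 24.9%. Nothing is read from these counts, and they are no test of the members, because this comparison was used to choose the genes. FGFR3, among the 5, passed the filter in vehicle only. The libraries were alike in total, with summed FPKM of 525200 to 556950 and 11292 to 11474 genes at 1 FPKM or more. Along the second principal component, vehicle 1 and 2 with DON 1 lay apart from DON 2 and 3 with vehicle 3, a split with no label behind it. FGFR4 was lower on the second side within each group. Its log2 difference between DON and vehicle was -2.63 within the first side and -2.76 within the second, and that of FGFBP1 -2.65 and -2.72. FGFR1 gave 0.23 and 0.05, FGFR3 -1.29 and -1.13, FGFRL1 -0.95 and -0.82, FGF19 -0.48 and -0.70, and FRS2 -0.21 and -0.03.

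The cells carried epithelial markers throughout. All 8 of the measured epithelial markers exceeded 1 FPKM. Their sums ran from 6610 to 7740 FPKM over the vehicle libraries and from 4720 to 6310 FPKM over the DON libraries. By limma 4 of them were lower (MUC1, CEACAM6, CLDN4 and TSPAN8) and 0 higher, beside 20.6% and 18.3% of all tested genes. CDH1 went the other way, from 30.85 ± 1.57 to 36.02 ± 1.10 FPKM (SD, n = 3). Its DON libraries all lay above every vehicle library, but it was not called (limma adjusted p = 0.0673). EPCAM stood at 1090 ± 110 and 1058 ± 137 FPKM (SD, n = 3), and its groups overlapped. Of 8 markers each for stroma and leukocytes, 1 and 2 reached 1 FPKM: LUM, and LYZ with CD68. The defining COL1A1, COL1A2 and PTPRC stayed at or below 0.144 FPKM on average in either group, and PDGFRA, THY1 and CD3E were at the floor in all 6 libraries. LUM and LYZ fell with DON, as 5 of the 7 tested FGF genes did. The mean of CD68 moved the other way, from 22.6 ± 5.7 to 32.8 ± 7.2 FPKM. Its groups overlapped and it was not called (limma adjusted p = 0.101). The part of LUM, LYZ and CD68 in these results was not tested. The call of LUM was lost without any 1 of the 6 libraries (adjusted p up to 0.167). That of CEACAM6 was lost without vehicle 1, 2 or 3, DON 1 or DON 2 (up to 0.21), that of CLDN4 without vehicle 1, vehicle 2, DON 2 or DON 3 (up to 0.147), and that of TSPAN8 with no filter on low values (0.324). No endothelial marker and 1 of 8 acinar and islet markers (SST) reached 1 FPKM in any library. In bulk RNA, fewer cells that express a gene and less RNA per cell cannot be told apart.

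Most FGF ligands other than FGF19 were low. Of 21 listed, 8 were at the floor in all 6 libraries, and 9 rose above it in some libraries but to no more than 0.497 FPKM. The other 4 passed the filter, with 1 higher and 3 lower in DON (18.3% and 20.6% among all tested genes), and without a filter none was called higher. FGF18, a ligand of FGFR3 among others, went from 2.40 ± 0.900 to 0.345 ± 0.0638 FPKM (log2 fold change -1.30, limma adjusted p = 0.00386) and FGF3 from 1.98 ± 0.454 to 0.421 ± 0.119 FPKM (adjusted p = 0.00247). Both passed the filter in vehicle only, so that they could hardly pass it without differing. FGF11, an intracellular FGF homologue, rose from 1.52 ± 0.602 to 4.05 ± 0.740 FPKM (adjusted p = 0.00706, and 0.0602 without a filter). FGF2, the widely studied heparin-binding FGF, fell from 10.8 ± 1.28 to 7.54 ± 1.21 FPKM (adjusted p = 0.0331). This call did not hold without a filter or without vehicle 2, vehicle 3, DON 1 or DON 2 (adjusted p up to 0.13). FGF21, the endocrine relative of FGF19 that also uses KLB and is known as a target of ATF4, was at the floor in 5 libraries and at 0.497 FPKM in vehicle replicate 1. In the same DON libraries ATF4 stood at 381 ± 39.1 FPKM against 190.5 ± 11.4 FPKM in vehicle, and its target ASNS at 310 ± 31.8 against 36.4 ± 3.35 FPKM.

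Of the proteoglycans that hold FGFs at the cell surface, SDC3 and GPC1 fell and SDC4 rose. Of all 7 tested binding proteins and co-receptors, 1 was higher and 5 lower (18.3% and 20.6% among all tested genes), with a median log2 fold change of -0.55 beside -0.01 over all tested genes. FGFBP3, a relative of FGFBP1, fell from 3.01 ± 1.21 to 0.460 ± 0.0761 FPKM (adjusted p = 0.00388) and passed the filter in vehicle only. Among heparan sulfate proteoglycans, syndecan SDC3 fell from 8.93 ± 0.929 to 3.05 ± 0.615 FPKM (adjusted p = 0.000728) and glypican GPC1 from 31.6 ± 2.73 to 16.9 ± 4.09 FPKM (adjusted p = 0.00601, and 0.0504 without a filter). SDC4, another syndecan, rose from 48.3 ± 6.81 to 83.8 ± 7.35 FPKM (adjusted p = 0.00331). SDC1, outside the naming rule, fell by 0.31 on the log2 scale (adjusted p = 0.0464), which did not hold without a filter, the limma trend, vehicle 1, vehicle 2, DON 2 or DON 3 (up to 0.155). Without DON replicate 2 or DON replicate 3, 3 genes were called lower, and 2 without a filter.

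Of 18 tested enzymes that build or edit heparan sulfate, 2 were higher and 5 lower (median -0.21), 38.9% called in all, the same share as among all genes. HS6ST1, a sulfotransferase whose 6-O-sulfates FGF receptors need, fell from 4.30 ± 0.323 to 2.23 ± 0.145 FPKM (limma adjusted p = 0.0022). HS3ST3B1, a 3-O-sulfotransferase, fell from 5.07 ± 0.862 to 2.72 ± 0.310 FPKM (adjusted p = 0.00736) and XYLT2, which starts the chain, from 3.14 ± 0.664 to 1.48 ± 0.112 FPKM (adjusted p = 0.00774, and 0.0515 without a filter). EXTL3, which adds the first sugar specific to heparan sulfate, went from 21.7 ± 2.87 to 15.9 ± 2.27 FPKM (adjusted p = 0.0453). This call did not hold without a filter, the limma trend, vehicle 1, vehicle 2, DON 2 or DON 3 (adjusted p up to 0.17). The 2 higher genes, outside the naming rule, were NDST1 and B4GALT7. NDST1 rose from 6.45 ± 0.286 to 8.61 ± 0.348 FPKM (adjusted p = 0.0149, lost without DON 2 or DON 3, up to 0.0645). B4GALT7 rose from 19.7 ± 0.788 to 24.2 ± 0.426 FPKM (adjusted p = 0.0235, lost without vehicle 1, vehicle 2, DON 2 or DON 3, up to 0.085). Without DON replicate 2 the counts were 0 higher and 3 lower, and without DON replicate 3 they were 0 and 4. Without vehicle 1 or vehicle 2 they were 1 and 3.

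Adaptors and kinases just below the receptor moved each way. Of 27 tested, 4 were higher and 5 lower (median -0.01), or 33.3% against 38.9% of all genes. PLCG1, the phospholipase that docks on activated FGF receptors, fell from 8.97 ± 0.473 to 4.50 ± 0.525 FPKM (limma adjusted p = 0.0011), and PIK3R1, the regulatory subunit of PI3 kinase, from 5.67 ± 0.124 to 2.78 ± 0.246 FPKM (adjusted p = 0.000966). CBLB, a ubiquitin ligase of receptor kinases, rose from 2.20 ± 0.881 to 4.23 ± 0.274 FPKM (adjusted p = 0.0284), which did not hold without a filter, vehicle 2, DON 2 or DON 3 (up to 0.152). GRB14, an adaptor that binds FGFR1 and the insulin receptor, fell from 5.25 ± 1.64 to 2.87 ± 0.311 FPKM (adjusted p = 0.0285), which did not hold without a filter, DON 2 or DON 3 (up to 0.144). The counts were 1 and 2 without a filter, 0 and 2 without DON replicate 2, and 0 and 3 without DON replicate 3. Without vehicle 1 they were 2 and 5, without vehicle 2 they were 1 and 4, and without DON 1 they were 5 and 8.

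Among genes that FGF is known to induce through ERK, the ETS factors ETV4 and ETV5 and the Sprouty inhibitors SPRY1 and SPRY4 fell. FOSL1 and DUSP4 rose, while the relatives ETV1 and SPRY2 did not pass the test. Of 19 tested, 2 were higher and 5 lower (median -0.17), or 36.8% called against 38.9% of all genes. With a term for the library split, 8 were lower, and without a filter 1 was higher. That split was read from these same libraries, so p-values with its term are no independent support. ETV4 fell from 50.2 ± 5.08 to 23.4 ± 1.70 FPKM (limma adjusted p = 0.000444), SPRY1 from 15.5 ± 2.67 to 8.02 ± 0.960 FPKM (adjusted p = 0.00393) and SPRY4 from 21.5 ± 0.814 to 13.5 ± 0.158 FPKM (adjusted p = 0.00106). ETV5, just outside the naming rule and added after its values were seen, fell from 17.6 ± 0.544 to 11.0 ± 0.487 FPKM (adjusted p = 0.00129). Their relatives were added in the same way. ETV1 stood at 13.7 ± 0.649 and 16.6 ± 1.18 FPKM in vehicle and DON (log2 fold change 0.26, adjusted p = 0.0557, and from 0.0377 to 0.0499 with the split term, a replicate block, the 5 FPKM filter, median-of-ratios scaling or quantile normalization). SPRY2 stood at 38.3 ± 7.15 and 28.6 ± 3.54 FPKM (log2 fold change -0.40, adjusted p = 0.0727, 0.00154 with the split term and 0.0113 with a replicate block). FOSL1, an AP-1 subunit induced by ERK, rose from 15.3 ± 4.40 to 25.8 ± 4.14 FPKM (adjusted p = 0.026), which did not hold without a filter, vehicle 1, vehicle 2, DON 2 or DON 3 (up to 0.145). DUSP4, outside the naming rule, rose from 53.6 ± 2.86 to 64.2 ± 2.55 FPKM (adjusted p = 0.0428). This call was lost without the limma trend or without any 1 of the 6 libraries (up to 0.127). DUSP6, the ERK phosphatase often read as a gauge of FGF signalling and also chosen after its values were seen, stood at 106 ± 7.56 and 94.1 ± 5.20 FPKM (log2 fold change -0.17, 95% interval -0.38 to 0.04, adjusted p = 0.175). With a term for the library split it was called lower (log2 fold change -0.22, adjusted p = 0.013). CCND1, outside the naming rule and the last of the 5 lower genes, fell from 49.4 ± 4.26 to 40.2 ± 1.98 FPKM (adjusted p = 0.0473). This call was lost without a filter, the limma trend, vehicle 1, vehicle 2, DON 2 or DON 3, and with median-of-ratios scaling (up to 0.169). The calls of ETV4, ETV5, SPRY1 and SPRY4 held in every setting. The rises were less stable than these, with 0 called without vehicle 1, vehicle 2, DON 2 or DON 3 and 1 without vehicle 3 or DON 1.

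Over these lists, with splicing regulators and the bile acid axis, 80 genes were tested, of which 12 were higher and 25 lower (46.2% called, median -0.19), beside 38.9% of all tested genes called, 18.3% higher and 20.6% lower. Of the 25, FGF18, FGF3 and FGFBP3 passed the filter in vehicle only. The counts were 7 and 13 without a filter, 3 and 15 without DON replicate 2, 3 and 18 without DON replicate 3, 7 and 21 without vehicle replicate 1, and 6 and 18 without vehicle replicate 2.

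ESRP1, the splicing factor that favours the epithelial isoforms of FGFR1, FGFR2 and FGFR3, rose from 8.57 ± 0.654 to 18.0 ± 0.527 FPKM (limma adjusted p = 0.000299). Its paralogue ESRP2 fell from 4.07 ± 0.386 to 2.79 ± 0.147 FPKM (adjusted p = 0.019), which did not hold without a filter, vehicle 2, DON 2 or DON 3 (up to 0.0754). RBFOX2, which also acts on FGFR2 splicing, rose from 11.5 ± 0.972 to 15.7 ± 0.765 FPKM (adjusted p = 0.0127, lost without DON 2 or DON 3, up to 0.0575). A table with 1 value per gene does not show which receptor isoforms were made.

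Of 9 measured genes of the bile acid and FGF19 axis, NR0B2 alone passed the filter. This nuclear receptor without a DNA-binding domain, known as SHP, represses bile acid synthesis in liver and fell from 36.5 ± 2.27 to 17.7 ± 0.840 FPKM (limma adjusted p = 0.000266). It was lower in all 3 DON libraries than in any vehicle library. CYP7A1, the rate-limiting enzyme of bile acid synthesis, and NR1H4, the bile acid receptor, were at the floor in all 6 libraries.

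**Figure D3:**
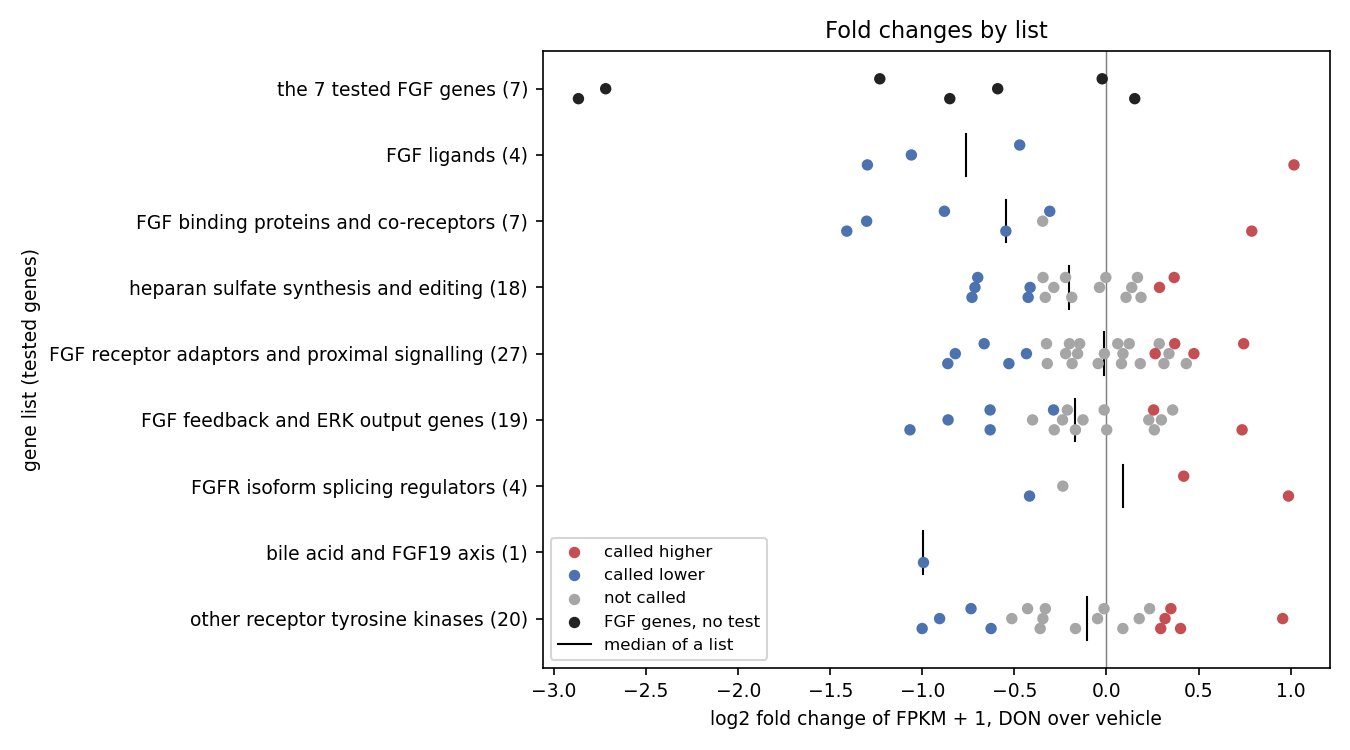
Log2 fold change of FPKM + 1 (DON over vehicle) for each tested gene, by list, with the median of each list as a bar. Red and blue points passed the limma test as higher or lower, grey points did not, and the 7 tested FGF genes are drawn in black without a test. FGFR4 and FGFBP1, at -2.87 and -2.72, lie beyond every point of the lists drawn.

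Set among receptor tyrosine kinases, FGFR4 was the fourth highest of the 57 measured in vehicle, after MET (157 ± 5.74 FPKM), ERBB3 (136.5 ± 7.25 FPKM) and DDR1 (125 ± 11.6 FPKM) and close to EPHA2 (65.2 ± 5.14 FPKM), whose libraries overlapped those of FGFR4. In DON it ranked 12, and the 5 highest were MET (193 ± 10.3 FPKM), ERBB3 (170 ± 5.17 FPKM), DDR1 (99.4 ± 12.0 FPKM), EGFR (85.3 ± 2.89 FPKM) and EPHA2 (57.9 ± 5.10 FPKM). Apart from the FGF receptors, 20 receptor kinases were tested, of which 5 were higher and 4 lower, or 45.0% called against 38.9% of all genes. ROR1, a Wnt5a receptor, fell from 3.42 ± 0.280 to 1.21 ± 0.245 FPKM (limma adjusted p = 0.00127). The ephrin receptor EPHB2 fell from 3.27 ± 0.317 to 1.28 ± 0.140 FPKM (adjusted p = 0.00128) and LMTK3 from 5.80 ± 1.06 to 3.10 ± 0.817 FPKM (adjusted p = 0.0177, lost without a filter, vehicle 1, vehicle 2, DON 2 or DON 3, up to 0.103). EGFR, the EGF receptor, rose (log2 fold change 0.96, adjusted p = 0.00123). These counts moved with every library left out, to 1 to 3 higher and 2 to 7 lower of the 20. Without a filter 3 were higher, with the 5 FPKM filter 1 was lower, and with the split term 7 were lower.

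**Figure D4:**
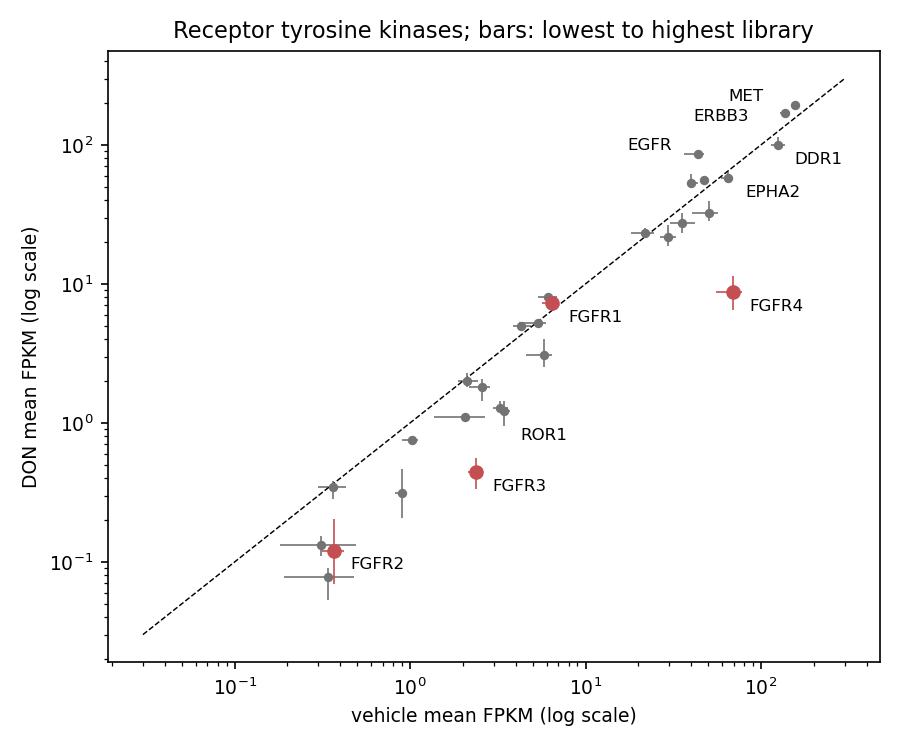
Mean FPKM in DON against mean FPKM in vehicle, both on log axes, for the 29 of 57 receptor tyrosine kinases whose mean reached 0.1 FPKM in either group. Bars run from the lowest to the highest library, the dashed line marks equal levels, and the 4 FGF receptors are in red: FGFR4 and FGFR3 lie well below the line and FGFR1 close to it.

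The genes whose profiles over the 6 libraries were most like those of the members were found by the root mean square distance between centred log2(FPKM + 1) values. FASN, the fatty acid synthase, was nearest to FGFR4 at a distance of 0.095. FASN stood at 75.3, 80.3 and 55.4 FPKM in vehicle and at 11.7, 8.01 and 7.84 FPKM in DON, so that, as for FGFR4, vehicle replicate 3 was the lowest of its group and DON replicate 1 the highest. GPC1 and LMTK3, among others, shared this feature, and the same libraries lay at opposite ends of the second principal component. ACAT2, FGFBP1, PIF1 and ACOT1 came next to FGFR4, at 0.227 to 0.313. For FGFBP1 the nearest were ACAT2 (0.109), of sterol synthesis, and the mitotic TOP2A (0.162), then FASN, DHCR7 and KIF20A (up to 0.225). For FGF19 they were PPP4C, SRR, ADAT1, TIMM8B and NHSL1, at 0.056 to 0.068. PIF1 and SRR stayed under 1 FPKM in every DON library and passed the filter in vehicle only, so that they could hardly pass it without differing. ACOT1 has a near-identical copy and its value is uncertain. These distances are descriptions over 6 libraries that share 1 group difference.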

How the data were processed

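RNA of 6 libraries was measured by poly(A)-selected, strand-directed RNA-seq with single 75 bp reads, per the labels' protocols. The authors deposited FPKM values, with 1 row per gene symbol. Per the submitters' processing notes, STAR was the aligner and hg19 the build. How FPKM were computed, the annotation and any use of strand: not given in the sources used here. No value was 0 and the lowest was 0.01. In 41 rows a failure mark replaced a value, among them IGF1R, HSPG2, KRT8 and KRT18, and these were left out. Depth cannot be read from FPKM, so values carry no counting interval. The columns named control were taken as vehicle by their number.

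Fold changes on the log2(FPKM + 1) scale understate changes of low genes. The 11471 genes that reached 1 FPKM in 3 or more libraries were fitted in limma 3.58.1 (R 4.3.3) with an intensity trend and no replicate block. All tests were two-sided, with Benjamini-Hochberg adjustment over all tested genes and a threshold of 0.05. Fold values are ratios of mean FPKM. The code was tested on simulated data. The members, gene lists and naming rule were chosen with earlier results of these data known. The rule names up to 4 called genes per list by size of change, every ligand with a mean of at least 1 FPKM, the 5 highest receptor tyrosine kinases per group, the 5 nearest profiles and the nearest tested gene on each side of a member. Lists are described by counts and medians, with no set test. Alternatives were quantile normalization, median-of-ratios scaling, no trend, no filter, a 5 FPKM filter, a pseudocount of 0.1, a replicate block, a term for the library split and leaving out each library. The split was read from the second principal component of these same libraries, so calls with its term are no independent support. Python 3.11.15, pandas 2.3.3, numpy 2.4.6 and matplotlib 3.10.9 were used. FGF19 and FGFR1 promoter windows are not shown here.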

Additional observations from a re-analysis of the deposited data

How the results depend on the processing

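Without a filter, 1391 genes were called higher and 1551 lower (2096 and 2363 with it), and 7 and 13 of the FGF pathway lists (12 and 25). Leaving out 1 library gave 1212 to 2133 higher and 1485 to 2523 lower over all genes, and 3 to 12 higher and 15 to 27 lower over the lists, the fewest without DON replicate 2. With a replicate block, 2551 were higher and 2863 lower, and 16 and 27 over the lists. The term for the library split, which was read from these same libraries, gave 2884 and 3147, and 14 and 32 over the lists. Deviations of same-numbered libraries from their group means correlated at 0.254, -0.184 and 0.502. Vehicle 1 and vehicle 2 correlated best with DON 1, and vehicle 3 with DON 3. Deviations from a mean of 3 libraries constrain each other, so whether the shared numbers pair the libraries cannot be told from them. Over the alternatives the log2 fold change of FGFR4 ranged from -3.06 to -2.69, of FGFBP1 from -2.83 to -2.69, of FGFRL1 from -0.97 to -0.80, of FGF19 from -0.69 to -0.52 and of FGFR1 from 0.08 to 0.21. FGFR3 ranged from -2.21, with a pseudocount of 0.1, to -1.18, and FRS2 from -0.12 to 0.10. No fold is given for FGFR3 and FRS2 with the filter at 5 FPKM, which they did not pass.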

Other observations

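The nearest tested genes on each side of each member along its chromosome, in RefSeq order (GRCh38.p14), went each way. Of 18 such neighbours, 5 were called higher and 6 lower (limma, beside 18.3% and 20.6% of all tested genes). Genes that were not tested can lie between: 10 between WDR11 and FGFR2, 8 between FGFRL1 and SPON2, and 5 on each side of FGFBP1. Beside FGFR4 on chromosome 5, ZNF346 had a vehicle mean of 2.44 ± 0.368 FPKM and a DON mean of 2.69 ± 0.198 FPKM (SD, n = 3, limma adjusted p = 0.527). The histone methyltransferase NSD1 had means of 6.20 ± 0.793 and 5.77 ± 0.308 FPKM (limma adjusted p = 0.572). The steep fall of FGFR4 was thus flanked by genes whose libraries overlapped between the groups. FGFR3 on chromosome 4 lay between TACC3, a mitotic spindle protein that fell 3.53-fold to 9.42 ± 1.71 FPKM (adjusted p = 0.000299), and LETM1, which fell 1.46-fold (adjusted p = 0.0293). Both neighbours of FGFRL1, on the same chromosome, were lower in DON as it was: IDUA, a lysosomal enzyme that degrades heparan sulfate, fell 3.06-fold (adjusted p = 0.000907) and SPON2 fell 1.80-fold (adjusted p = 0.0168).

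FGF19 lies on chromosome 11 between ORAOV1, which rose to 10.6 ± 0.669 FPKM (1.77 times vehicle, adjusted p = 0.00224), and FGF3, which fell 4.70-fold and passed the filter in vehicle only. FGF4, which lies between FGF19 and FGF3, was at the floor of 0.01 FPKM in all 6 libraries. The 3 ligand genes of this stretch thus had unlike levels: in vehicle FGF19 stood at 24.3 FPKM, FGF3 at 1.98 FPKM and FGF4 at the floor. Beside FGFR1 on chromosome 8, LETM2 rose to 3.84 times its vehicle mean (adjusted p = 0.00418), having passed the filter in DON only, and RNF5P1, a pseudogene whose value is uncertain, was not called (adjusted p = 0.498). Beside FGFBP1 on chromosome 4, BST1 fell 2.41-fold (adjusted p = 0.0111) and TAPT1 rose to 6.10 ± 0.541 FPKM (adjusted p = 0.0427). Beside FGFR2, ATE1 rose to 1.29 times vehicle (adjusted p = 0.0293) and WDR11 was not called (0.941). Beside KLB, RFC1 rose to 1.53 times vehicle (adjusted p = 0.00255) and RPL9 was not called (0.158), and neither neighbour of FRS2 was, YEATS4 (0.569) or CCT2 (0.405). Without a filter or without vehicle 1, vehicle 2 or DON 2, the calls of LETM1, SPON2, ATE1 and TAPT1 were lost (adjusted p up to 0.151). Those of LETM1, ATE1 and TAPT1 were also lost without DON 3, that of TAPT1 without DON 1, and that of BST1 without a filter (0.0801). Whether calls of neighbours are linked to those of the members was not tested.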
